A study of Mus musculus with 9 samples.

Results

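The 10 genes described here encode the pore and auxiliary subunits of CatSper, the calcium channel of the sperm tail, and 4 proteins that set the potassium, sodium and proton balance around it. They are the pore subunits Catsper1, Catsper2, Catsper3 and Catsper4, the auxiliary subunits Catsperb and Catsperd, the potassium channel Kcnu1 with its partner Lrrc52, the sperm sodium-proton exchanger Slc9c1 and the voltage-gated proton channel Hvcn1. The genes were picked by name, with earlier results of these data known. All 10 were found among the 55401 genes of the count table through the GENCODE vM21 annotation. Of the 10, 9 passed the filter on low counts and were tested, and Hvcn1 did not.

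CatSper lets calcium into the sperm tail, opens as the inside of the cell becomes alkaline and is needed for hyperactivated swimming in the female tract. Kcnu1 (Slo3) carries the potassium current that hyperpolarizes the sperm membrane during capacitation, and Lrrc52 shifts that channel's opening. Slc9c1 and Hvcn1 both move protons out of the cell. The mRNAs of most of these genes are made in the haploid germ cells of the testis, while Hvcn1 is also known from leukocytes.

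The libraries came from testes of wild-type male mice, an ICR stock by the study's methods, with no age given in the labels. In acRIP-seq, poly(A) RNA is precipitated with an antibody against N4-acetylcytidine (ac4C), a modified base, and the recovered RNA is sequenced. There were 3 acRIP libraries, 3 libraries recovered with control immunoglobulin (IgG) and 3 of the RNA before precipitation (input), all made by Smart-seq2, and a globin probe carrying ac4C was added to the RNA by the study's methods. The comparison of acRIP with IgG asks which mRNAs held a larger or smaller share of the RNA recovered with the ac4C antibody than with IgG. The comparisons with input ask how the mix of mRNAs in the IgG or acRIP libraries differed from that in input. Per the study's methods, a known mass of RNA went into each input library. IgG and acRIP RNA was too scarce to measure and was taken by volume, so the starting masses of these libraries are unknown. All cDNA was amplified before sequencing. The part of starting mass and amplification in the differences below was not tested. Libraries were scaled to their totals adjusted by a TMM normalization factor. The globin probe was not used for scaling, so the amounts of RNA recovered were not compared. Nothing in the labels ties a library to an animal or a separate precipitation, so the p-values measure the spread between these libraries, which may be technical.

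Total counts on genes ran from 22023925 to 31340090 in input, from 14647542 to 18786779 in IgG and from 16025779 to 18639134 in acRIP. Genes with a count numbered between 28552 and 29642 per input library, between 26204 and 26874 per IgG library and between 22206 and 22402 per acRIP library. The tissue label fitted its markers. The 7 spermatid markers summed to between 17410 and 19730 counts scaled to library size (CPM) in input, between 21050 and 21660 in IgG and between 21710 and 23630 in acRIP. Prm1, Prm2, Tnp1 and Tnp2 made up most of these sums, and single markers differed. At adjusted p under 0.05, 4 of the 7 were higher and 2 lower in IgG than in input. In acRIP, 5 were higher and 1 lower than in input. The 6 spermatocyte markers summed to between 891 and 917 CPM in input, between 902 and 944 in IgG and between 736 and 771 in acRIP. The 6 Sertoli cell markers summed to between 279 and 289 CPM in input, between 269 and 289 in IgG and between 304 and 323 in acRIP, and 1 of them, Rhox5, was at 0 in all libraries. These shifts between groups stand beside every difference below, and their part in the results was not tested.

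In input, the order of the levels per length (FPKM, fragments per kilobase of exon scaled to library size) ran from Catsper3 at 113 ± 5.01 (SD, n = 3) through Catsper4 at 71.3 ± 1.09 to a middle group of Catsperd, Slc9c1, Catsper1, Lrrc52 and Catsperb. In the middle group the means fell from 44.5 to 32.0 FPKM, and the libraries of each neighbouring pair overlapped. Catsper2 at 19.1 ± 0.751 and Kcnu1 at 19.0 ± 0.662 overlapped each other and lay below Catsperb. Hvcn1 was near 0. The 9 tested genes stood between the 88.9th and the 97.6th percentile of the genes with a count in input. The order differed after recovery. Catsper2 went from the eighth place in input to the second in IgG and the first in acRIP, Slc9c1 from the fourth to the seventh in both, and Catsperd from the third to the sixth in acRIP. A level in RNA of a whole tissue does not tell fewer cells of a type from less RNA per cell.

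**Figure D1:**
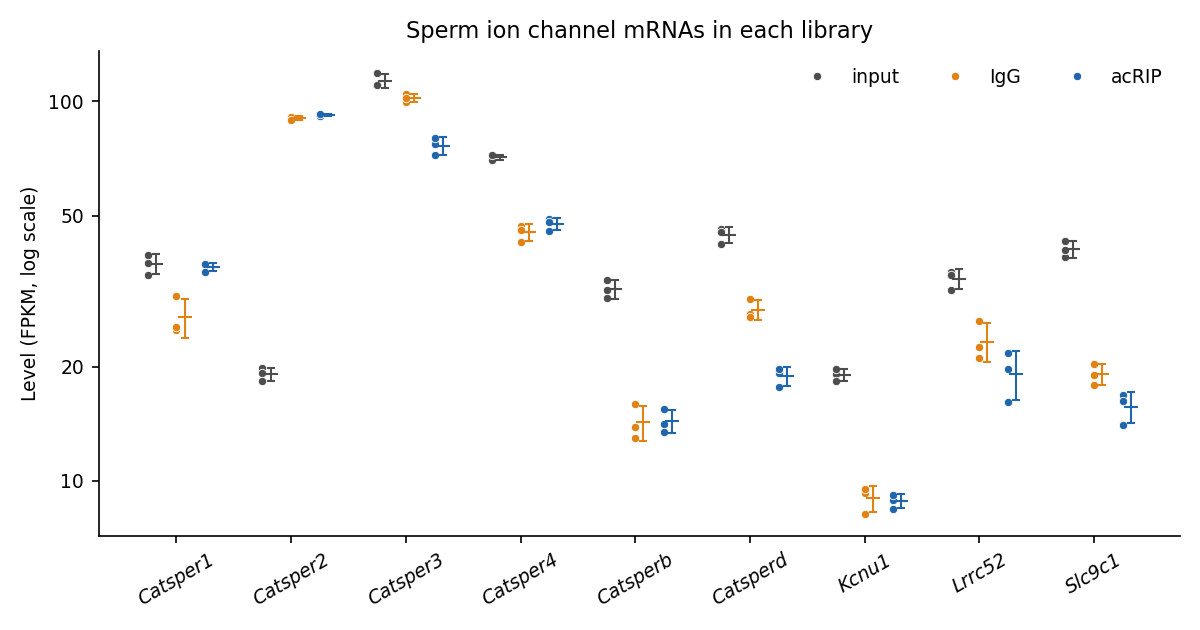
Level of the 9 tested genes in FPKM (log scale) in each library, with 1 point per library and the mean ± SD of 3 libraries beside the points. Catsper2 was between 18.4 and 19.8 FPKM in input and between 89.2 and 92.7 FPKM in all IgG and acRIP libraries, while the other genes were level with or below their input values after recovery.

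A gene was called when its adjusted p was under 0.05 and its change over 2-fold. Between acRIP and IgG, 0 of the 9 tested genes were called, where 11.5% of all 22510 tested genes were called higher and 20.9% lower. These shares include genes with low counts. With at least 10 counts in every library, 1200 of 16047 genes were called higher and 1427 lower. By adjusted p alone, and also by unadjusted p under 0.05, 5 of the 9 differed in this comparison in edgeR, 1 higher and 4 lower by adjusted p, and DESeq2 called 0. In acRIP over input, 1 gene was called higher, against 17.7% of all tested genes, and 4 lower, against 22.9%. In IgG over input, 1 gene was called higher, against 13.5% of all tested genes, and 3 lower, against 7.22%. Called in the same direction against both IgG and input were 0 genes, where 7.88% of all tested genes were called higher and 17% lower. The median log2 fold change of the 9 genes was -0.02 in acRIP over IgG, beside -0.09 for all tested genes, -0.83 in acRIP over input, beside -0.10, and -0.66 in IgG over input, beside -0.01. Both comparisons with input share the input libraries, so their values are given side by side only.

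**Figure D2:**
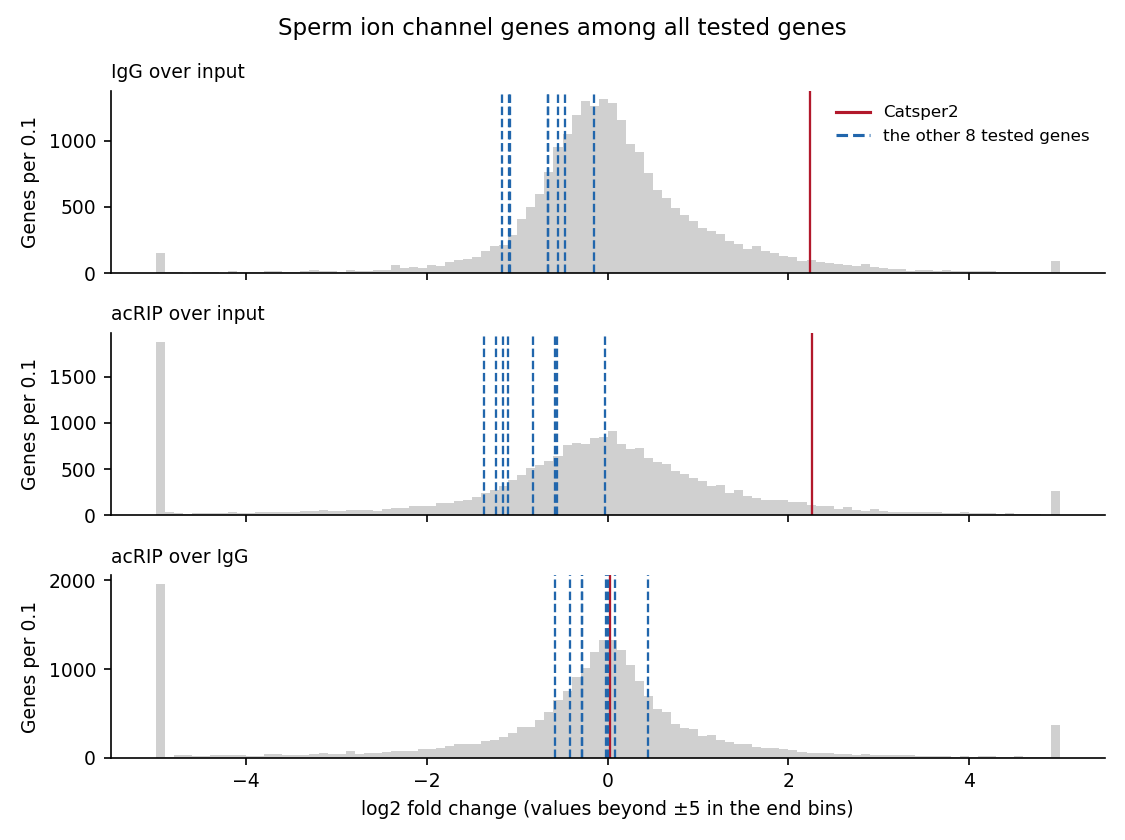
Distribution of the log2 fold change of all 22510 tested genes in the 3 comparisons, in bins of 0.1, with vertical lines for the 9 tested sperm ion channel genes. Catsper2 lay at 2.24 in IgG over input, at 2.26 in acRIP over input and at 0.02 in acRIP over IgG, and the other 8 lay below 0 in both comparisons with input.

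The 4 pore subunits assemble into 1 channel. Against input, Catsper2 was higher in both recoveries, Catsper3 and Catsper4 were lower in both, and Catsper1 was lower in IgG and within the spread of input in acRIP. Catsper2 (chromosome 2, 121392631 to 121413792, minus strand, mm10) held 19.8, 19.2 and 18.4 FPKM in the 3 input libraries. It held 91.1, 90.8 and 89.2 FPKM in the IgG libraries and 91.6, 91.5 and 92.7 FPKM in the acRIP libraries. All 6 recovered libraries were thus above all input libraries, and every acRIP library was above every IgG library by a narrow margin. The log2 fold change was 2.24 ± 0.04 (standard error) in IgG over input, a 4.72-fold rise with adjusted p = 9.9e-29, and 2.26 ± 0.04 in acRIP over input, a 4.8-fold rise with adjusted p = 8.79e-29. Between acRIP and IgG it was 0.02 ± 0.04, with adjusted p = 0.624. Among the log2 fold changes of all tested genes, Catsper2 stood at the 95.8th percentile in IgG over input and the 93.9th in acRIP over input.

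Catsper2 overlaps the start of Pdia3, a gene for an endoplasmic reticulum chaperone on the opposite strand, by 18 of its 3695 exon bases. Pdia3 moved the other way, with a log2 fold change of -0.51 ± 0.04 in IgG over input and -0.47 ± 0.04 in acRIP over input. The count table sums Catsper2 over all its annotated exons, whereas its longest coding transcript has 2247 bases, so which exons carried the added reads was not analysed here.

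Catsper1 (chromosome 19, 5335741 to 5344280, plus strand) was the gene of the set with the highest log2 fold change in acRIP over IgG. It held 34.9, 37.6 and 39.5 FPKM in input, 30.6, 24.9 and 25.4 FPKM in IgG and 37.1, 37.3 and 35.5 FPKM in acRIP. All acRIP libraries were above all IgG libraries and within the range of input. Over IgG the log2 fold change in acRIP was 0.44 ± 0.07, a 1.36-fold difference with adjusted p = 3.91e-06, short of the 2-fold limit. In acRIP over input it was -0.03 ± 0.07 (adjusted p = 0.754), and in IgG over input it was -0.47 ± 0.07 (adjusted p = 1.23e-06).

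Catsper3 (chromosome 13, 55784568 to 55808998, plus strand) was the most abundant of the set in input, at 110, 110 and 119 FPKM. The IgG libraries held 99.7, 105 and 102 FPKM, and the acRIP libraries held 72.1, 77.1 and 80.1 FPKM. Every acRIP library was below every IgG library, and these were below every input library. The log2 fold change was -0.42 ± 0.05 in acRIP over IgG (adjusted p = 6.31e-08), -0.57 ± 0.05 in acRIP over input (adjusted p = 3.58e-11) and -0.15 ± 0.05 in IgG over input (adjusted p = 0.017).

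Catsper4 (chromosome 4, 134211970 to 134227383, minus strand) fell alike in both recoveries. It held 71.3, 70.2 and 72.4 FPKM in input, 47.0, 42.6 and 45.8 FPKM in IgG and 45.5, 49.0 and 48.2 FPKM in acRIP. The IgG and acRIP libraries overlapped, with a log2 fold change of 0.08 ± 0.05 between them (adjusted p = 0.228), and all were below input. Against input the log2 fold change was -0.66 ± 0.05 in IgG (adjusted p = 2.34e-12) and -0.58 ± 0.05 in acRIP (adjusted p = 2.61e-11), both under the 2-fold limit.

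As shares of the summed FPKM of the 4 pore subunits, Catsper2 made up between 7.37% and 8.40% in the input libraries, between 33.9% and 34.5% in IgG and between 35.9% and 37.2% in acRIP. The share of Catsper3 was between 46.5% and 47.8% in input, between 37.1% and 39.8% in IgG and between 29.3% and 31.2% in acRIP. Catsper4 went from between 29.0% and 30.2% in input to between 16.2% and 17.5% in IgG and between 18.5% and 19.2% in acRIP. The summed level itself stayed between 236 and 269 FPKM in all 9 libraries. These shares restate the levels given above and are no separate result.

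**Figure D3:**
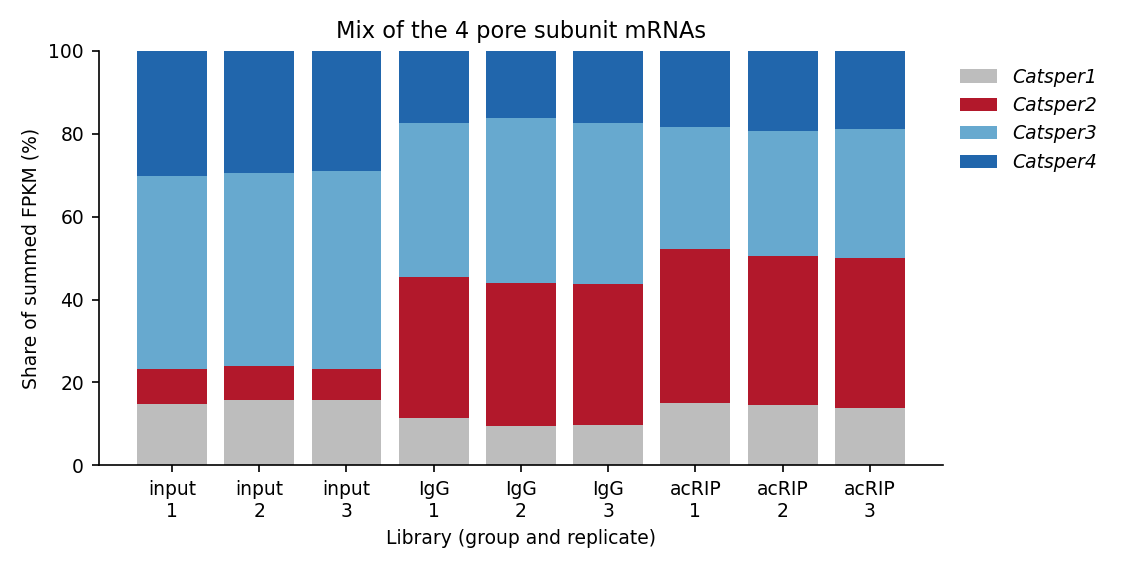
Share of the summed FPKM of Catsper1, Catsper2, Catsper3 and Catsper4 taken by each, in percent, with 1 stacked bar per library. Catsper2 took at most 8.40% in each input library and at least 33.9% in each IgG and acRIP library, and the bars of the 3 libraries of a group were alike.

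The study linked ac4C in mRNA with short cytidine-rich sequences, in testis with CHCAGSHC, where H is A, C or U and S is C or G. A widened form of it, CNCAGNNC with N for any base, was searched in the sense strand of the longest coding transcript of each gene. A match to the widened form need not fit the study's form. The matches of 3 pore subunits are printed because these genes show the 3 patterns above: Catsper1 higher in acRIP than in IgG, Catsper2 higher in both recoveries than in input, and Catsper3 lower in acRIP than in IgG. Each line is the GENCODE vM21 transcript sequence, 5′ to 3′, with the 8 matching bases in capitals and 10 bases on each side. All 9 matches lay in coding exons. Only CCCAGCAC and CACAGCAC in Catsper1 and CCCAGCAC in Catsper2 fit the study's narrower form.
Catsper1, exon 1, chr19:5336084-5336091, plus strand: cttgctgagtCCCAGCACtctggtggac
Catsper1, exon 1, chr19:5336503-5336510, plus strand: acacaagtctCACAGCACacttgccacc
Catsper1, exon 1, chr19:5336603-5336610, plus strand: ttcggcaaagCTCAGTCCagggagagct
Catsper1, exon 2, chr19:5337737-5337744, plus strand: ttgtcactgaCCCAGTCCctgggctttg
Catsper1, exon 6, chr19:5339752-5339759, plus strand: tgtttcaggaCTCAGACCccaagcgctt
Catsper2, exon 2, chr2:121412251-121412258, minus strand: tttccagctgCTCAGAGCtgatgctatc
Catsper2, exon 6, chr2:121406820-121406827, minus strand: tgttaggagtCCCAGCACactctgtgtg
Catsper3, exon 3, chr13:55798746-55798753, plus strand: cctttgaggtCTCAGAGCttttctttgt
Catsper3, exon 7, chr13:55808079-55808086, plus strand: ccctgcggcaCACAGACCccatggttct

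Catsper1 had 5 matches, or 2.29 per kilobase, Catsper2 had 2, or 0.89 per kilobase, and Catsper3 had 2, or 1.5 per kilobase. Catsper4 had 0, Catsperb 5, Catsperd 2, Kcnu1 7, Lrrc52 3, Slc9c1 2 and Hvcn1 9. In the same order the matches per kilobase were 0, 1.346, 0.78, 1.98, 2.625, 0.52 and 3.21. At least 1 match was present in 94.2% of the 15514 tested protein-coding genes with a transcript sequence, and their median was 1.66 per kilobase. The widened sequence is thus common in mRNAs, and the study's narrower form was not counted. The cytidine content was 30.1% in Catsper1, at the 91.8th percentile of those transcripts, and 22.5% in Catsper2, at the 31.6th. Among the genes called lower than input in both recoveries, it was 18.7% in Catsperb, 19.5% in Slc9c1 and 23.9% in Kcnu1. It was 28.7% in Lrrc52, at the 84.2nd percentile, 25.1% in Catsperd, at the 55.4th, and 23.0% in Catsper3, at the 36.0th. Like Slc9c1, these genes were lower in acRIP than in IgG by adjusted p. The cytidine content of Catsper4 was 25.4%. A match is a run of letters and does not show that the base is acetylated.

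The auxiliary subunits Catsperb and Catsperd, membrane proteins with large parts outside the cell that cap the pore, were both lower after recovery. Catsperb (chromosome 12, 101404653 to 101626009, plus strand) held 30.3, 31.8 and 33.9 FPKM in input, 13.8, 13.0 and 15.9 FPKM in IgG and 14.1, 13.5 and 15.4 FPKM in acRIP. Both recovered groups overlapped each other and lay well below input. The log2 fold change was -1.16 ± 0.06 in IgG over input (adjusted p = 1.77e-16) and -1.16 ± 0.07 in acRIP over input (adjusted p = 1.57e-16), and 0.01 ± 0.07 in acRIP over IgG (adjusted p = 0.934).

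Catsperd (chromosome 17, 56628143 to 56664456, plus strand) had the lowest log2 fold change of the set in acRIP over IgG. Its libraries held 42.1, 46.1 and 45.2 FPKM in input, 27.5, 27.0 and 30.1 FPKM in IgG and 17.7, 19.2 and 19.7 FPKM in acRIP. The 3 groups did not overlap. Over IgG the log2 fold change in acRIP was -0.58 ± 0.06, a 1.49-fold difference with adjusted p = 1.54e-09. Against input it was -0.66 ± 0.06 in IgG (adjusted p = 1.53e-11) and -1.24 ± 0.06 in acRIP (adjusted p = 2.44e-18), of which the second was called.

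Kcnu1 (chromosome 8, 25849623 to 25937939, plus strand), the pore of the sperm potassium channel, held 19.1, 19.7 and 18.3 FPKM in input. The IgG libraries held 9.31, 8.18 and 9.50 FPKM and the acRIP libraries 8.89, 9.18 and 8.44 FPKM. The recovered groups overlapped, and both lay below input, with a log2 fold change of -1.08 ± 0.08 in IgG (adjusted p = 1.17e-13) and -1.11 ± 0.08 in acRIP (adjusted p = 5e-14). Between acRIP and IgG it was -0.02 ± 0.08 (adjusted p = 0.818).

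Lrrc52 (chromosome 1, 167445669 to 167466780, minus strand), the leucine-rich repeat partner of Kcnu1, held 35.6, 31.8 and 34.9 FPKM in input, 22.5, 26.3 and 21.0 FPKM in IgG and 19.7, 21.7 and 16.1 FPKM in acRIP. The IgG and acRIP libraries overlapped at their edges, and both groups were below input. The log2 fold change was -0.55 ± 0.10 in IgG over input (adjusted p = 4.32e-05) and -0.83 ± 0.11 in acRIP over input (adjusted p = 3.66e-08). In acRIP over IgG it was -0.28 ± 0.11 (adjusted p = 0.0278). That difference was -0.16 (adjusted p = 0.218) without acRIP replicate 3 and -0.18 (adjusted p = 0.213) without IgG replicate 2. It also missed the threshold with DESeq2 (adjusted p = 0.0696), upper quartile scaling (0.0704), only the 6 libraries compared (0.0762) and limma on log2(FPKM + 1) (0.0639) and log2(FPKM + 0.1) (0.0947).

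Slc9c1 (chromosome 16, 45535309 to 45607001, plus strand), the exchanger that brings sodium in and protons out, was the gene of the set with the lowest log2 fold change in acRIP over input. It held 38.8, 40.5 and 42.8 FPKM in input, 19.0, 17.9 and 20.3 FPKM in IgG and 14.0, 16.8 and 16.2 FPKM in acRIP. Every acRIP library was below every IgG library, and these were below every input library. The log2 fold change was -1.37 ± 0.06 in acRIP over input (adjusted p = 1.31e-18), -1.09 ± 0.06 in IgG over input (adjusted p = 4.62e-16) and -0.28 ± 0.07 in acRIP over IgG (adjusted p = 0.000507).

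**Figure D4:**
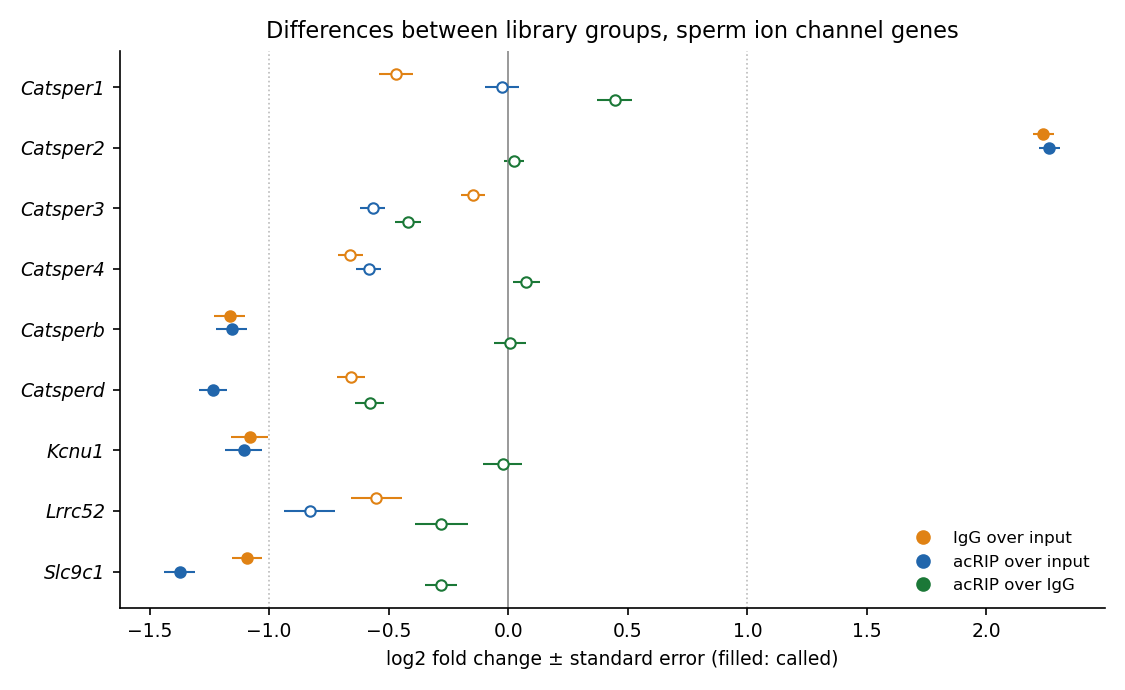
Log2 fold change with its standard error for the 9 tested genes in IgG over input, acRIP over input and acRIP over IgG (3 libraries a group), with filled points for called genes and dotted lines at a 2-fold change. Catsper2 at 2.24 and 2.26 is to the right of 1 in both comparisons with input, and Catsperb, Kcnu1 and Slc9c1 are to the left of -1 in both.

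Hvcn1 (chromosome 5, 122206804 to 122242297, plus strand) had 0, 4 and 5 counts in the input libraries and 0 in all IgG and acRIP libraries. It was below the filter on low counts of the fit used for the other 9 genes. In the alternatives that kept it, its adjusted p against input ran from 0.0768 to 0.40, and none called it. A count of 0, which allows up to 3 counts, left room for at most 0.0571 FPKM in an IgG library and 0.0542 FPKM in an acRIP library. Low counts in the table were mostly even, between 81.9% and 84.3% of the values from 1 to 20, as where both reads of a pair are counted, so these limits cover counting error only and are lower than 3 read pairs would give. Of its 3563 exon bases, 1574 also lie in exons of Tctn1 on the opposite strand, where reads could not be told apart without strand, and 1989 do not. Tctn1 held between 264 and 456 counts in input and between 264 and 362 in acRIP. The 6 immune cell markers, from cells that also use Hvcn1, summed to between 13.5 and 15.5 CPM in input, between 11.3 and 15.9 in IgG and between 6.26 and 6.95 in acRIP, and their part in the Hvcn1 counts was not tested.

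The other 10 CatSper complex genes of the table were all tested, and in acRIP over IgG 0 were called by edgeR or DESeq2, with 5 higher and 1 lower by adjusted p alone and 6 under an unadjusted p of 0.05, and the median log2 fold change was 0.14. In acRIP over input 1 was called higher and 1 lower, beside 17.7% and 22.9% of all tested genes, and in IgG over input 0 were called by either tool, with 3 higher and 5 lower by adjusted p alone and 8 under an unadjusted p of 0.05. Both called genes belong to the duplicated subunit epsilon, part of the extracellular canopy. Catspere1 held between 6.87 and 7.48 FPKM in input, between 11 and 15.1 in IgG and between 21.1 and 22.8 in acRIP, with a log2 fold change of 1.61 ± 0.09 in acRIP over input (adjusted p = 8.04e-17) and 0.76 ± 0.09 in acRIP over IgG (adjusted p = 7.15e-09). Catspere2 went the other way, from between 7.89 and 8.31 FPKM in input to between 3.62 and 4.78 in IgG and between 3.66 and 4.28 in acRIP, with a log2 fold change of -1.06 ± 0.10 in acRIP over input (adjusted p = 1.25e-10) and -0.18 ± 0.11 in acRIP over IgG (adjusted p = 0.153). Their annotated transcripts are 87.3% identical over 2698 aligned bases, Catspere1 is annotated as a pseudogene in GENCODE vM21, and only uniquely mapped reads were counted, so reads that match both copies are missing and the separate values are uncertain. Catspere2 was -0.97 and not called with limma on log2(FPKM + 1), the 1 of 19 alternatives to end its call.

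The duplicated subunit gamma showed the same opposition at a smaller size. Catsperg1 had a log2 fold change of 0.76 ± 0.07 in acRIP over input and Catsperg2 of -0.45 ± 0.06, and their transcripts are 96.5% identical over 3658 aligned bases, so these values are uncertain too. In all 3 comparisons and all 19 alternatives, the first gene of each pair had a log2 fold change above 0 and the second below 0. Catsperz, which with Efcab9 forms the calcium-sensing part of the complex, was the most abundant complex gene, with between 236 and 256 FPKM in input, and its log2 fold change was 0.40 ± 0.04 in acRIP over input and 0.07 ± 0.04 in acRIP over IgG. Efcab9 differed from IgG by 0.17 ± 0.05 on the log2 scale (adjusted p = 0.00227). C2cd6, needed to bring the channel to the tail, had -0.72 ± 0.04 in acRIP over input and 0.17 ± 0.04 in acRIP over IgG. Slco6c1, a transporter-like partner of the channel, had -0.10 ± 0.04 and 0.19 ± 0.05 in the same comparisons, Tmem249 had -0.35 ± 0.07 and 0.12 ± 0.08, and Tmem262 had 0.13 ± 0.07 and -0.01 ± 0.07.

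**Figure D5:**
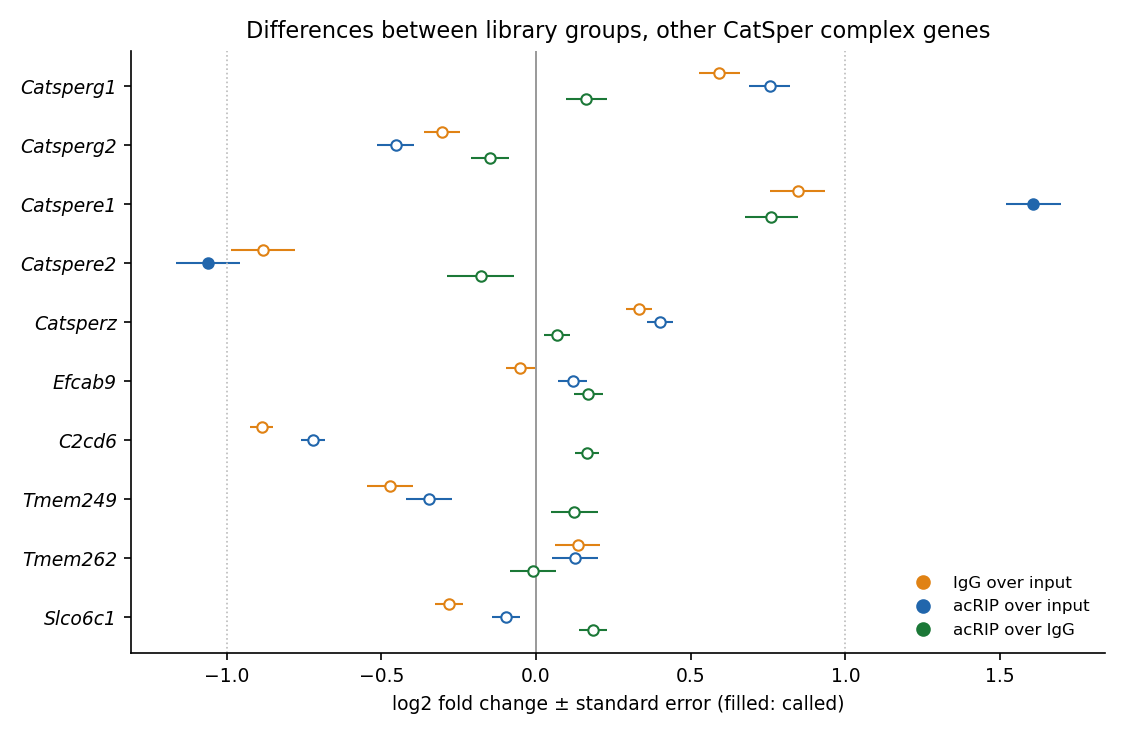
Log2 fold change with its standard error for the other 10 CatSper complex genes in the 3 comparisons (3 libraries a group), with filled points for called genes and dotted lines at a 2-fold change. Only Catspere1 at 1.61 and Catspere2 at -1.06 in acRIP over input are called, and the members of each duplicated pair lie on opposite sides of 0.

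Of the other 15 ion transport and capacitation genes of sperm, 11 were tested. Against IgG, 0 were called higher and 3 lower in acRIP (11.5% and 20.9% over all tested genes), with a median log2 fold change of -0.09. Against input, 1 was called higher and 2 lower (17.7% and 22.9% over all), with a median of -0.43. Cftr, a chloride and bicarbonate channel, was lower than both, with a log2 fold change of -1.53 ± 0.18 against IgG (adjusted p = 1.73e-08) and -1.36 ± 0.18 against input (adjusted p = 6.6e-08). Kcnj11, an inward rectifier potassium channel, was called lower than both on 2 counts in the 3 acRIP libraries beside 35 in IgG, a ratio of 16.7 with a 95% interval (Clopper-Pearson, counting error only) from 4.29 to 143. Counted as pairs, 1 beside 17, the ratio was 16.2 with an interval from 2.54 to 678. The calcium pump Atp2b4 was called higher in IgG over input (2.44 ± 0.10) and in acRIP over input (1.44 ± 0.10) and lower in acRIP over IgG (-1.0 ± 0.10), the last at the limit and called in 7 of the 19 alternatives. Slc26a8, an anion transporter of the sperm tail, had the highest log2 fold change over IgG in this group, 0.44 ± 0.06 (adjusted p = 5.65e-08).

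Of 11 relatives of these channels that act mainly in other tissues, 9 were tested, at levels far below those of the sperm genes, and 1 was called higher and 3 lower in acRIP than in both other groups, beside 7.88% and 17% of all tested genes. Lrrc26, a relative of Lrrc52 that partners Kcnma1, held between 1.84 and 4.13 FPKM in acRIP, between 1.03 and 1.63 in IgG and between 0.442 and 1.21 in input, with a log2 fold change over IgG of 1.11 ± 0.40 (adjusted p = 0.0156). That call was lost without acRIP replicate 2 (0.73, adjusted p = 0.169) and without IgG replicate 1 (0.97, adjusted p = 0.056). Kcnma1, the closest relative of Kcnu1, was called higher over IgG (1.11 ± 0.35, adjusted p = 0.00606) but not over input (-0.09 ± 0.31, adjusted p = 0.801), and fell under the 2-fold limit over IgG without acRIP replicate 1 (0.96). Kcnt1, Slc9a3 and Cacna1g, for a potassium channel, a sodium-proton exchanger and a calcium channel, had 0 counts in all acRIP libraries. Against 3 counts in each library they were at least 5.83-fold, 13.1-fold and 7.10-fold lower than in IgG, and against 6 counts, as 3 read pairs would give, at least 2.92-fold, 6.55-fold and 3.55-fold.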

How the data were processed

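The authors deposited counts, uniquely mapped reads per gene and library with no normalization, in a table of 55401 genes that also gives each gene's merged exon length. Per the labels and methods they trimmed reads with Trim Galore 0.6.7, mapped them to mm10 with STAR 2.7.10a and counted with featureCounts 2.0.2. Which annotation release was used, how strand was set and if read pairs were counted once is not given in the sources used here. Identifiers were matched without version to GENCODE vM21 (55141 found). Groups and replicate numbers came from the sample titles.

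Counts were tested with edgeR 4.0.16 in R 4.3.3 (filterByExpr, TMM normalization, quasi-likelihood test) in 1 fit of all 9 libraries, with Benjamini-Hochberg adjustment over the 22510 genes tested and calls at adjusted p under 0.05 and over 2-fold. FPKM was computed from the counts, the table's lengths and TMM-scaled totals, so a level depends on the merged length. The test was run on simulated data first. The members and lists were chosen with earlier results of these data known. Named are all 10 members, all other CatSper complex genes in the table and, of the 2 further lists, genes called against both control groups and those with the highest and lowest log2 fold change over IgG. Atp2b4, Kcnma1, Pdia3, Tctn1 and the markers were added after their values were seen. Alternatives were RLE, upper quartile and no scaling, other filters, DESeq2 1.42.0, limma 3.58.1 on log2(FPKM + 1) and log2(FPKM + 0.1), only the 6 libraries compared, a block for the replicate number, and fits that left out 1 library each. The number of unused columns with sample values was 0.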

Additional observations from a re-analysis of the deposited data

How the results depend on the processing

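Each of the 9 tested genes kept its call, or its lack of one, in all 3 comparisons under all 19 alternatives. Of the 513 values for single members under these alternatives, 484 kept their direction and their side of adjusted p = 0.05, 11 lost that side, 1 gained it and 17 changed sign. Sign changes were of uncalled values near 0. In acRIP over IgG, Catsper2 was -0.0259 with no scaling, -0.0245 with limma on log2(FPKM + 1) and -0.0247 with limma on log2(FPKM + 0.1), and Catsperb was -0.0426, -0.0354 and -0.0376 in the same settings and -0.00085 with the filter of 10 counts in each library. Kcnu1 was 0.0254 with upper quartile scaling, 0.0042 with no filter and 0.0024 with only the 6 libraries compared. Leaving out each library in turn gave -0.0548 to 0.0952 for Catsperb, -0.0867 to 0.0176 for Kcnu1 and, in acRIP over input, -0.0674 to 0.0224 for Catsper1. Catsper3 in IgG over input lost significance without input replicate 3 (-0.11), IgG replicate 1 (-0.12) or IgG replicate 3 (-0.14), and with limma on log2(FPKM + 0.1) (-0.18). Replicates sharing a number were not paired, since their deviations correlated between -0.0066 and 0.035. The replicate block called the same number of members, 0 in acRIP over IgG, 5 in acRIP over input, 4 in IgG over input and 0 against both.

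Counts over all genes moved more. The number of genes tested also moved, from 22510 to 16047 under the filter of 10 counts in each library and 35699 with log2(FPKM + 1). In acRIP over IgG, 2590 higher and 4701 lower genes became 1200 and 1427 under that filter and 1011 and 1438 with log2(FPKM + 1). All 9 tested members passed the filter of 10 counts, and the shares of all genes called were smaller under it in each comparison. In acRIP over input, 3984 and 5145 became 2495 and 1852, and 1829 and 2011. In IgG over input, 3028 and 1626 became 1906 and 611, and 1245 and 429. The median of all genes in acRIP over input was -0.44 with no filter and -0.10 with it. The limma fit on log2(FPKM + 1), which compresses low levels, ended the calls of Cftr, Kcnj11, Kcnt1, Slc9a3, Cacna1g, Lrrc26 and Kcnma1. Low counts limit Hvcn1, Kcnj11, Kcnt1, Slc9a3, Cacna1g, Lrrc26, Kcnma1, Csf1r, Cd68 and Ptprc. In the IgG libraries Kcnma1 held between 16 and 24 counts and Lrrc26 between 18 and 36.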

Other observations

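Markers of other cells were read beside the ion channel genes. Of the 7 spermatid markers, Odf1, a protein of the outer dense fibres of the sperm tail, was the 1 called against input. It held between 150 and 160 FPKM in input and between 791 and 827 FPKM in IgG, with a log2 fold change of 2.38 ± 0.04 in IgG over input and 2.79 ± 0.04 in acRIP over input, and 0.42 ± 0.03 in acRIP over IgG. Spaca1 had -0.66 ± 0.04 in IgG over input and -0.71 ± 0.04 in acRIP over input. Acrv1 had -0.345 ± 0.042 and 0.003 ± 0.041 in the same comparisons. Prm1, Prm2, Tnp1 and Tnp2 were above 0 in both. Of the 6 spermatocyte markers, the meiotic endonuclease gene Spo11 was the 1 called, with -1.04 ± 0.06 in acRIP over input. The markers did not move together. By adjusted p alone, 4 were lower and 1, Sycp1 (0.57 ± 0.05), was higher in acRIP over input. In IgG over input 3 were higher and 3 lower. The 5 Leydig cell markers summed to between 1016 and 1055 CPM in input, between 935 and 955 in IgG and between 895 and 939 in acRIP.

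Immune cell markers were low, and those tested did not move together. In acRIP over IgG, Csf1r, a growth factor receptor of macrophages, had a log2 fold change of -3.49 ± 0.37, with 14, 2 and 6 counts in the acRIP libraries. Cd68, a macrophage lysosomal protein, had -4.43 ± 0.54, with 12, 0 and 0 counts in the acRIP libraries. Ptprc, the common leukocyte antigen, had 2.09 ± 0.41, with 6, 36 and 12 counts in the IgG libraries.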
